A study of Mus musculus with 16 samples.

Results

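The genes described here are the mouse cytochrome P450 genes of families 1, 2 and 3, measured on arrays of normal liver, of liver beside tumours and of liver tumours. They were taken from the platform annotation as every symbol made of Cyp, a family number from 1 to 3, a subfamily letter and a gene number. The rule gave 57 of 23279 genes, in 16 subfamilies, with 3 genes in family 1, 47 in family 2 and 7 in family 3. All animals were male and 16 months old. Axin1 fl/fl mice had been bred with mice carrying Alfp-Cre, which is active in hepatocytes of the embryo. From these Axin1-deleted mice came 5 samples of adjacent non-tumoral liver (mice 81, 121, 123, 124 and 1931) and 8 tumours of 6 mice (81, 90, 93, 121, 123 and 124), of which 3 came from mouse 121. The 3 control livers (mice 10, 11 and 12) are labelled as not deleted, and their alleles and Cre are not stated further. Mice 81, 121, 123 and 124 gave both tissues.

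Cytochrome P450 enzymes are haem proteins that insert an oxygen atom into their substrates, with electrons passed on by cytochrome P450 oxidoreductase. Families 1, 2 and 3 handle drugs, toxicants, steroids and fatty acids, and hepatocytes hold most of them. Many are expressed more around the central vein than around the portal tract, where Wnt and β-catenin signalling is active, and Axin1 is part of the complex that degrades β-catenin. The nuclear receptors CAR and PXR and the aryl hydrocarbon receptor induce some members, and the pulse pattern of growth hormone sets sex differences in others.

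Values are log2 expression on 1 array per sample, so a difference of 1 is a factor of 2, and array medians lay between 4.37 and 4.50. Axin1, the deleted gene, was at 5.07 to 5.48 in control livers, 3.90 to 4.39 in adjacent livers and 3.95 to 4.81 in tumours. The mean of 10 hepatocyte markers lay between 11.78 and 11.91 in controls, between 11.75 and 11.89 in adjacent livers and between 11.56 and 11.84 in tumours. The mean of 8 macrophage markers stood at 8.87 in control 10, against 6.37 and 5.56 in the other 2 controls. Of the members, 39 were above a floor of 4.43 (the median over the whole table) on 3 or more arrays, and the other 18 were dim. Because the samples are bulk tissue, fewer cells of a type and less RNA per cell cannot be told apart.

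The promoters of 6 members are shown because 5 of the genes lie in the gene clusters with the largest differences of the tumours, and Cyp2e1 is a pericentral marker. They come from RefSeq on GRCm38.p6, where 49 of 57 members have a window of 250 bases before to 50 bases after the start, 3 of them with 2 windows. Capitals mark matches, on either strand, to 1 of 7 short motifs given after the sequences. The windows are Cyp2a4 at chr7:26306942-26307241, Cyp2b9 at chr7:26173159-26173458, Cyp2b13 at chr7:26061245-26061544, Cyp2c37 at chr19:39992174-39992473, Cyp2c50 at chr19:40089429-40089728 and Cyp2e1 at chr7:140763569-140763868, all on the + strand.
Cyp2a4: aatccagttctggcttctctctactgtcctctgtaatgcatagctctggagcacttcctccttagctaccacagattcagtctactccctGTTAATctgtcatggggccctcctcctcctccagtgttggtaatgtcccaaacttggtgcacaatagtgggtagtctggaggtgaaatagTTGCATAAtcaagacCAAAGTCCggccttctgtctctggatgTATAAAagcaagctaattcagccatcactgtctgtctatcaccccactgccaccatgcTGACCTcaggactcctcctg
Cyp2b9: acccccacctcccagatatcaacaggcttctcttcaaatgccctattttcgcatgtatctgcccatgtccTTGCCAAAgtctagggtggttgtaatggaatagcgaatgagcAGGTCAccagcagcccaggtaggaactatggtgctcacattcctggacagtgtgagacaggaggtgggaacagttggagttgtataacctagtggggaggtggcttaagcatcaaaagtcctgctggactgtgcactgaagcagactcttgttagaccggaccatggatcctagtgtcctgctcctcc
Cyp2b13: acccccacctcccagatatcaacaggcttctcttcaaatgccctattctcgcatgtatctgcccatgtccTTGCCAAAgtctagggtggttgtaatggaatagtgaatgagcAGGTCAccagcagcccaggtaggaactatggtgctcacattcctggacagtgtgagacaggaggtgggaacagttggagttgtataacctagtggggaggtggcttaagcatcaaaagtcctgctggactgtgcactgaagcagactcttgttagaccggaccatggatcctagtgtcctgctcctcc
Cyp2c37: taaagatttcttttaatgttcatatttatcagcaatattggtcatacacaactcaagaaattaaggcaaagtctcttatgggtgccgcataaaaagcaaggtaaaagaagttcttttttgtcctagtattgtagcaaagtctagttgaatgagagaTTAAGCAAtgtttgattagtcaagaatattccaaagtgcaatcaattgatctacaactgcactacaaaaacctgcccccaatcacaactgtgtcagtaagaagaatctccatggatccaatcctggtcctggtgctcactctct
Cyp2c50: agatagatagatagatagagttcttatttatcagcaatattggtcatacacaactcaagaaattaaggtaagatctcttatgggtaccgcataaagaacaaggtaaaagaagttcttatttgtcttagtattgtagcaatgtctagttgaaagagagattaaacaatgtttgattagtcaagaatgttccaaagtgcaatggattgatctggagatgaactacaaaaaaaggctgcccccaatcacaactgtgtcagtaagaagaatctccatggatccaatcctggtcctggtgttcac
Cyp2e1: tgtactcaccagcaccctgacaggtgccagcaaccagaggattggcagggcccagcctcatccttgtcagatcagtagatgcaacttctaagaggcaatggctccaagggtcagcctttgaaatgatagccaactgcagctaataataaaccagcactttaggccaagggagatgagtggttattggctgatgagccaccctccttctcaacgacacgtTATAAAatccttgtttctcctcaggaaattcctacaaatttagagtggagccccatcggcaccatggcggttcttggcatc

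The Cyp2b9 and Cyp2b13 windows were identical at 99.3% of aligned positions and differed by T48C and C104T, with positions counted from 1 at the 5′ end of the window, Cyp2b9 first. The Cyp2c37 and Cyp2c50 windows were 86.6% identical. The motifs searched were TATAAA (the box bound by TBP), GTTAAT (HNF1 core site), CAAAGTCC (HNF4 core), AGGTCA (nuclear receptor core site), TTGCNNAA (C/EBP), TTCNNNGAA (STAT5) and GCGTG (core of the aryl hydrocarbon receptor element). TATAAA was in the windows of 25 members (51%), against 13.6% of 32851 promoter windows. CAAAGTCC was in 10 (20.4%, against 1.42%), AGGTCA in 17 (34.7%, against 16.3%) and TTGCNNAA in 13 (26.5%, against 10.8%). GTTAAT stood in 5 (10.2%, against 7.10%), TTCNNNGAA in 2 (4.08%, against 8.30%) and GCGTG in 9 (18.4%, against 32.4%). The Cyp2a4 window held 5 of the 7 motifs and the Cyp2c50 window none. A match describes letters in the window and not a bound site.

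The first comparison asks how liver that lost Axin1 but formed no tumour there differed from normal liver. No member passed the test, which was limma with Benjamini-Hochberg adjustment over all genes, and the smallest adjusted p of a member was 0.999. Over all genes 0% passed. At an unadjusted p under 0.05 there were 4 members (7.02%, against 4.55% of all genes), and the median member differed by 0.01, against -0.01 for all genes. Without overlap between the groups, 2 members were lower (3.51%, against 2.04% of all genes) and 1 was higher (1.75%, against 2.18%).

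Cyp2f2, which oxidises naphthalene and marks hepatocytes near the portal tract, was 1 of the 2 members without overlap on the lower side. Its level was 11.08, 11.20 and 10.89 in controls 10, 11 and 12, and 9.58, 10.17, 9.85, 10.26 and 9.59 in adjacent livers of mice 81, 121, 123, 124 and 1931. All 5 adjacent livers lay below all 3 controls, with a mean log2 difference of -1.16 (2.24-fold). An exact two-sided permutation test gave p = 0.0179, the smallest this design allows, and 0.0731 after adjustment over the 15 tests of the 5 marker genes. In limma the SE was 1.33 when tumours shared the estimate of the spread (adjusted p = 0.999) and 0.17 when only the 2 groups were fitted (adjusted p = 0.252). The other member without overlap was Cyp2a12, a steroid hydroxylase, at 10.88, 10.98 and 10.98 in controls and 10.40 to 10.85 in adjacent livers, and the member on the higher side was the dim Cyp2c66, at 1.91 in controls and 2.14 in adjacent livers on average.

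Cyp2c38, an arachidonic acid epoxygenase, had the largest log2 difference of adjacent liver from control, 2.10 ± 0.69 (SE, 3 controls and 5 adjacent livers, limma adjusted p = 0.999). Its level was 8.05, 5.29 and 7.38 in the controls and 10.03, 8.99, 9.49, 7.99 and 8.52 in adjacent livers of mice 81, 121, 123, 124 and 1931. The groups overlapped through control 10 and adjacent liver 124, and the controls themselves spread over more than 2 log2 units. Cyp2u1, a fatty acid hydroxylase, lay at the other end with a difference of -1.27 ± 0.46. It read 6.22, 8.13 and 7.64 in the controls and 5.45 to 7.05 in adjacent livers.

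The 5 members with the largest SD between adjacent livers were Cyp2c40 (1.99), Cyp2a4 (1.71), Cyp2c55 (1.38), Cyp2c69 (1.10) and Cyp2b9 (1.02). All but Cyp2c55 are in the list of 10 female-biased members, and the other 6 of that list had an SD of 0.13 to 0.46. The following values show which livers differed. Cyp2a4, a testosterone hydroxylase, stood at 9.70 and 9.34 in adjacent livers 81 and 123, and at 6.40, 7.14 and 5.97 in those of mice 121, 124 and 1931, against 7.52, 6.08 and 5.93 in the controls. Cyp2c40, which hydroxylates arachidonic acid, stood at 7.85 and 8.47 in the same 2 livers and at 3.60 to 5.44 in the other 3. For Cyp2c69 the values were 5.37 and 5.95, against 3.54 to 3.79. Cyp2b9, another testosterone hydroxylase, read 5.60 and 4.96 there and 3.26 to 3.65 in the other 3 adjacent livers. The opposite order was seen for Cyp2c55, an inducible arachidonic acid hydroxylase, at 4.83 and 5.41 against 6.81 to 8.08. Bcl6, a male-biased repressor controlled by growth hormone, was at 5.97 and 7.11 in livers 81 and 123 and at 8.36 to 8.91 in the rest. Not every growth hormone regulator separated these livers. Cux2 read 4.34 and 4.71 in livers 81 and 123 and 4.42 to 4.62 in the rest. The growth hormone receptor gene Ghr read 10.21 and 10.63, against 10.18 to 10.56. These genes were picked after their values were seen, and the split carries no test. Mean log2 differences of adjacent liver from control were 1.20 ± 0.80 for Cyp2a4 and 1.08 ± 0.90 for Cyp2c40 (SE), both within that spread.

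**Figure D1:**
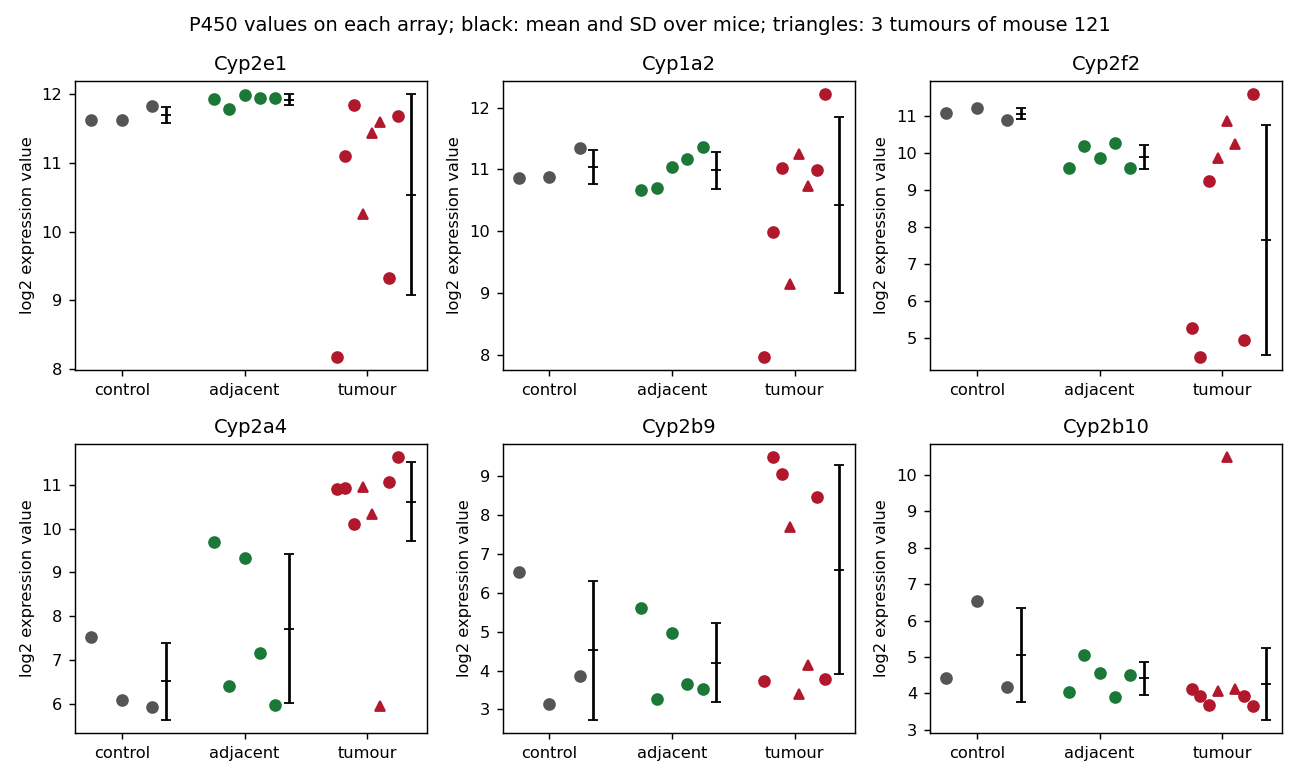
Log2 expression of Cyp2e1, Cyp1a2, Cyp2f2, Cyp2a4, Cyp2b9 and Cyp2b10 on every array, by group, with the mean and SD over mice; triangles are the 3 tumours of mouse 121. Adjacent Cyp2f2 values (9.58 to 10.26) lie below the control values (10.89 to 11.20), tumours spread from 4.50 to 11.58, and Cyp2a4 is above 10 in 7 of 8 tumours.

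The second comparison asks how tumours differed from the non-tumoral liver of the same kind of mouse. Most members of the large subfamily Cyp2c were lower on average in tumours, as were Cyp2e1, Cyp2f2, Cyp2j5 and Cyp2j9, while Cyp2a4, Cyp2b9 and Cyp2b13 were higher. None of these differences passed the test (smallest adjusted p of a member 0.0718, limma, Cyp2d13), and 0.155% of all genes passed. At an unadjusted p under 0.05 stood 19 members (33.3%, against 15.3% of all genes), 16 lower and 3 higher. The median member differed by -0.18, against -0.03 for all genes, and by -0.09 without tumour 81. Over the 39 members above the floor, with the dim genes left out of the fit, it was -0.45. The median of all genes in that fit is not given here, and -0.03 includes dim genes. A mean difference of -1 or less was found for 14 members (24.6%, against 0.945% of all genes) and one of 1 or more for 2 members (3.51%, against 1.5%). Over mice, 1 member was lower without overlap (1.75%, against 1.11% of all genes), and 0 members were higher without overlap, against 1.12% of all genes. The 1 member was Cyp2c38.

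Leaving out tumour 93 changed the calls. Fits that each left out 1 mouse called 0 to 7 members, and the most were called without tumour 93. In that fit 743 genes passed (3.19%), and among them were 7 members, of which Cyp2a4 was higher and 6 were lower. Their log2 differences and limma adjusted p-values were then 3.01 (0.0385) for Cyp2a4, -2.45 (0.0239) for Cyp2c23, -1.84 (0.0488) for Cyp2c29 and -2.67 (0.0286) for Cyp2c38. They were -3.17 (0.0398) for Cyp2c54, -2.02 (0.00919) for Cyp2d13 and -1.73 (0.0462) for Cyp2j9. With the 8 tumours as separate values 87 genes passed, of which 1 was a member, Cyp2d13 (adjusted p = 0.0492). With the mouse as a random block added to that, the member that passed was again Cyp2d13 alone (0.0385). When the block was fixed and only the 4 mice with both tissues were used, 0 genes of any kind passed (smallest adjusted p of a member 0.152).

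Markers of other cells were examined beside these values, and none passed the test. At an unadjusted p under 0.05, 1619 of all 23279 genes were higher in tumours and 1937 lower. Of 7 proliferation markers, 7 were higher in tumours at an unadjusted p under 0.05 (median log2 difference 1.42), and their mean ran from 4.01 to 4.999 in adjacent livers and from 4.33 to 6.95 in tumours. Stellate and fibroblast markers had 5 of 9 higher and 2 lower (median 0.62), with means of 5.47 to 6.61 and of 5.95 to 6.73, and Col1a1, a fibrillar collagen, differed by 1.25. Of 8 macrophage markers 3 were lower (median -0.76), with means of 5.75 to 7.06 in adjacent livers and 4.79 to 6.95 in tumours. Vsig4, a Kupffer cell receptor, stood at 2.86, 3.36 and 3.78 in tumours 81, 90 and 123 and at 4.49 in the unnumbered tumour of mouse 121, against 7.001 to 8.998 in adjacent livers. Clec4g, a lectin of sinusoidal endothelium, stood at 3.98, 4.08 and 5.41 in the same 3 tumours and at 5.23 in the unnumbered tumour, against 8.31 to 8.93. These 4 tumours, low for both genes, were those with the most members below adjacent liver. Not all markers of the 2 lists were low there. In tumours 81, 90, 123 and the unnumbered tumour, the macrophage marker Cd68 stood at 9.24, 8.15, 8.06 and 8.68, against 6.645 to 8.317 in adjacent livers. The endothelial marker Emcn stood at 6.57, 7.53, 7.84 and 7.27 in them, against 4.84 to 5.84. Over the 8 endothelial markers, 3 were lower and 3 higher (median -0.17), with means of 6.51 to 6.95 in adjacent livers and 5.71 to 7.15 in tumours. The mean of 6 cholangiocyte markers ran from 3.91 to 4.35 and from 4.37 to 5.51, but without Tspan8, which differed by 3.31, the mean of the other 5 overlapped (3.86 to 4.13 and 3.81 to 5.14). The 7 lymphocyte markers had a median of 0.01 and 0 at an unadjusted p under 0.05, with means of 3.76 to 4.88 and 3.83 to 4.74. Vsig4, Clec4g, Cd68, Emcn, Col1a1 and Tspan8 were named after their values were seen. The part of these cells in the P450 differences was not tested.

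Among the 15 Cyp2c genes, which include the main mouse epoxygenases, the median log2 difference of tumours from adjacent liver was -1.48. At an unadjusted p under 0.05 stood 10 of them, all lower, against 1937 of all 23279 genes on the lower side. A difference of -1 or less was found for 8 of them, against 220 of all genes. The range ran from -2.68 (Cyp2c50) to 0.08 (Cyp2c39). Cyp2c50, an arachidonic acid epoxygenase, read 8.41 to 9.74 in adjacent livers, and in tumour mice its lowest, median and highest values were 2.89 (mouse 81), 6.47 and 9.53 (mouse 93). Tumours 81, 90 and 123 lay far under every adjacent liver. The unnumbered tumour and tumour 3 of mouse 121 (6.66 and 7.71) also lay under every adjacent liver. Tumours 93 and 124 and tumour 2 of mouse 121 lay within the adjacent range (mean difference -2.68 ± 0.96 SE, adjusted p = 0.192). Cyp2c54, next to Cyp2c50 on chromosome 19, read 7.51 to 9.60 in adjacent livers and 3.62, 6.55 and 9.14 in tumour mice (-2.62 ± 0.85, adjusted p = 0.154). Tumours 81, 90 and 123 and the unnumbered tumour and tumour 3 of mouse 121 (4.92 and 6.99) again lay under every adjacent liver. The other 3 tumours did not.

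Cyp2c38, the epoxygenase with the largest difference of adjacent liver from control, read 7.99 to 10.03 there and 4.80, 6.53 and 7.78 in tumour mice. The groups did not overlap over mice (-2.46 ± 0.57 SE, adjusted p = 0.0759), but of the single tumours of mouse 121, tumour 3, at 8.32, lay within the range of adjacent liver and tumour 2, at 10.09, above it. Against the controls, at 5.29 to 8.05, the mean of the tumours differed by -0.36. The comparison of adjacent liver with control and that of tumour with adjacent liver share the same adjacent samples. Cyp2c23, an epoxygenase also known as Cyp2c44, was uniform in adjacent livers, at 9.47 to 9.94, and read 5.21, 7.83 and 9.60 in tumour mice (-2.06 ± 0.58, adjusted p = 0.115). Tumour 93 and tumour 3 of mouse 121 (9.48) reached the adjacent range. Cyp2c70, which makes muricholic acids in mouse bile, differed by only -0.31, and Cyp2c55 by 0.02 with a range of 3.45 to 9.11 over tumour mice.

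Cyp2e1, the ethanol- and paracetamol-oxidising enzyme of pericentral hepatocytes, read 11.93, 11.78, 11.99, 11.95 and 11.95 in adjacent livers of mice 81, 121, 123, 124 and 1931 and 11.63, 11.62 and 11.83 in the controls. In tumour mice its lowest, median and highest values were 8.17 (mouse 81), 11.10 and 11.84 (mouse 93). Every tumour mouse lay below the mean of adjacent liver, and only mouse 93 and mouse 124 (11.69) came close to it. The mean log2 difference was -1.38 ± 0.52 (2.61-fold). The exact two-sided permutation test, which ignored that some mice gave both tissues, gave p = 0.0195 (adjusted over 15 tests 0.0731). Cyp1a2, the caffeine-metabolising P450 of the same zone, showed no such order, at 10.66 to 11.36 in adjacent livers and 7.96, 10.69 and 12.22 in tumour mice. Its lowest value was in tumour 81 and its highest in tumour 124 (difference -0.56 ± 0.52, exact permutation p = 0.496).

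Cyp2f2 had the widest spread among tumours of the 5 marker genes. It was at 4.50 in tumour 90, 4.95 in tumour 123 and 5.29 in tumour 81, and at 9.23 in tumour 93, 9.86, 10.84 and 10.24 in the 3 tumours of mouse 121 and 11.58 in tumour 124. The tumours therefore lay either far under the level of adjacent liver or near or above it, with none between 5.29 and 9.23. Tumour 124 and tumour 2 of mouse 121 lay above every adjacent liver (9.58 to 10.26). Tumour 124 also lay above every control (10.89 to 11.20). The mean log2 difference from adjacent liver was -2.25 ± 1.10 (4.75-fold, exact permutation p = 0.156). Cyp2j9 and Cyp2j5, which oxidise arachidonic acid, were low in the same 3 tumours, 81, 90 and 123. Cyp2j5 stood at 7.65, 8.36 and 7.57 in tumours 81, 90 and 123 and at 9.88 to 10.78 in the other 5, against 10.65 to 10.97 in adjacent livers. The other 5 Cyp2j genes differed by -0.16 to 0.18, and the highest was Cyp2j6.

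In subfamily Cyp2d, whose members hydroxylate steroids and many drugs, the median difference of 9 genes was -0.22. Cyp2d13, a transcribed pseudogene in RefSeq, had the lowest, -1.74 ± 0.39 (SE, adjusted p = 0.0718). It was at 9.36 to 10.22 in adjacent livers and at 6.46, 8.22 and 9.54 in tumour mice, so that tumour 93 was the only tumour in the adjacent range. Cyp2d40 followed at -1.33, with tumour 81 at 4.64 and the other tumours at 7.70 to 9.17. Cyp2d9, a male-specific testosterone hydroxylase, differed by -0.22, and the abundant Cyp2d10 and Cyp2d26 by 0.04 and -0.04. The highest difference, 0.27 for Cyp2d12, came from tumour 2 of mouse 121 at 6.95, against 2.09 to 2.70 in the other tumours.

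The 7 Cyp3a genes, the PXR-responsive family that clears many drugs and steroids, had a median difference of -0.42 and a range from -0.73 (Cyp3a59) to 0.20 (Cyp3a44). Cyp3a11, the main member in adult mouse liver, was at 11.68 to 12.20 in adjacent livers and at 9.08 in tumour 81, with the other 7 tumours at 11.36 to 12.55. In family 1, the dioxin-inducible Cyp1a1 differed by 0.12 and Cyp1b1, best known from non-hepatocyte cells, by 0.01. Of the subfamilies with a single gene apart from Cyp2e1 and Cyp2f2, the vitamin D hydroxylase Cyp2r1 differed by -0.43, Cyp2u1 by -0.72 and Cyp2g1 by 0.33. The Cyp2g1 value came from tumours 81 (5.54) and 124 (4.78), against 3.30 to 3.54 in the other 6.

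On the higher side stood Cyp2a4, at 10.90, 10.93, 10.10, 11.07 and 11.64 in tumours 81, 90, 93, 123 and 124, and at 10.95, 10.34 and 5.95 in the 3 tumours of mouse 121. All but tumour 3 of mouse 121 were above every adjacent liver and every control. Over mice the difference was 2.91 ± 0.66 (7.5-fold, higher in 6 of 6 mice, limma adjusted p = 0.0736). The exact permutation p, with the pairing of tissues again ignored, was 0.00866 (adjusted over 15 tests 0.0731). Mice 81 and 123 had the highest adjacent values (9.70 and 9.34), and their tumours exceeded their own adjacent liver by 1.20 and 1.73, against 2.68 in mouse 121 and 4.49 in mouse 124. Cyp2a5, its near-identical paralogue, was not analysed here, and the part of the transcript covered by the Cyp2a4 probe set is not given in the sources used here, so signal from close copies cannot be told apart.

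Cyp2b9 was high in a different set of tumours, at 9.50, 9.06, 8.46 and 7.68 in tumours 90, 93, 123 and the unnumbered tumour of mouse 121. It was at 3.39 to 4.16 in tumours 81, 124 and the other 2 of mouse 121, against 3.26 to 5.60 in adjacent livers. The mean difference was 2.40 ± 1.09 (exact permutation p = 0.108). Cyp2b13, its neighbour with the near-identical promoter shown above, reached 5.85 and 4.76 in the unnumbered tumour and tumour 2 of mouse 121 and 4.92 in tumour 93, against 2.54 to 2.90 in adjacent livers (0.98 ± 0.35, adjusted p = 0.191). Tumour 2 of mouse 121 was thus low for Cyp2b9 and high for Cyp2b13. Cyp2b10, the classical CAR target, stood apart in that same tumour at 10.50, with the other 7 tumours at 3.65 to 4.11 and adjacent livers at 3.90 to 5.06.

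**Figure D2:**
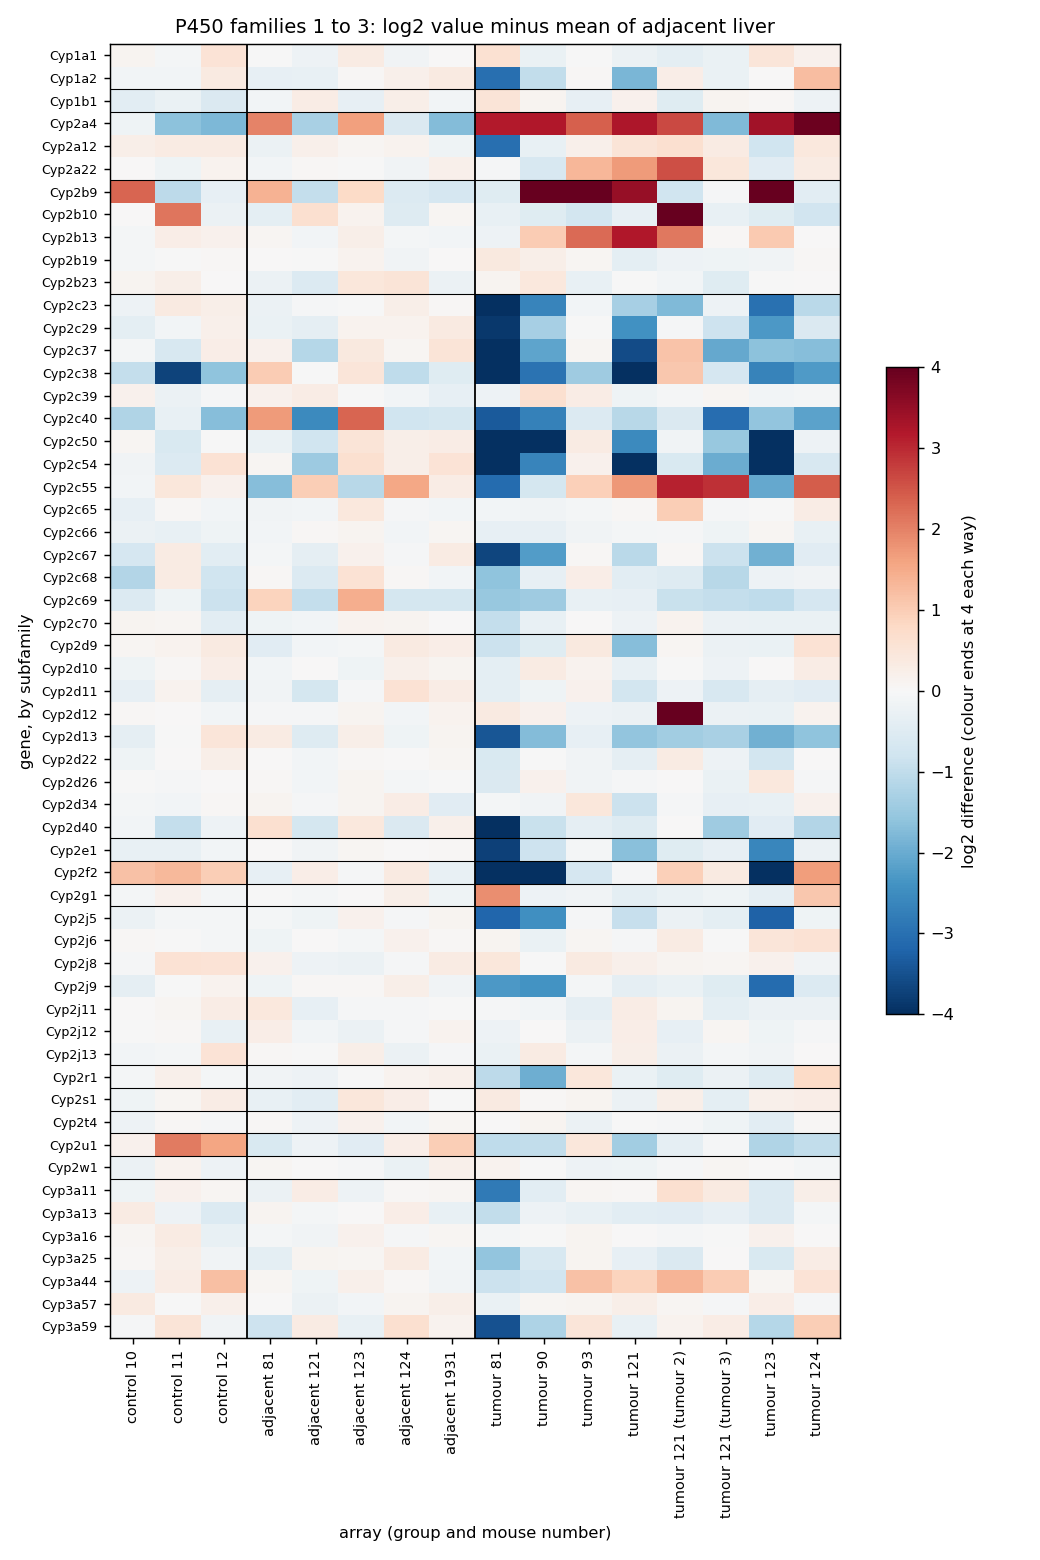
Log2 expression of each of the 57 genes (rows, by subfamily) on each of 16 arrays (columns), as the difference from the mean of adjacent liver; blue is lower, red is higher, and colours end at a difference of 4. The rows of Cyp2c23, Cyp2c37, Cyp2c50 and Cyp2c54 are low in tumours 81, 90 and 123, those of Cyp2c39 and the dim Cyp2c65 and Cyp2c66 lie within 1 of 0 there, and the Cyp2a4 row is high in every tumour except tumour 3 of mouse 121.

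The third comparison sets tumours against normal liver. No member passed (smallest adjusted p 0.0674, limma, Cyp2a4), and 0.0258% of all genes did. At an unadjusted p under 0.05 stood 13 members (22.8%, against 12.5% of all genes), 11 lower and 2 higher. Only Cyp2a4 was higher without overlap (1.75% of members, against 2.11% of all genes), and 0 members were lower without overlap, against 3.08% of all genes. For Cyp2a4 the log2 difference was 4.11 ± 0.77 (17.2-fold, exact permutation p = 0.0119, the smallest possible here, adjusted 0.0731). Without tumour 93, 3 members passed, Cyp2a4 (adjusted p = 0.0328), Cyp2d13 (-2.06, 0.0283) and Cyp2u1 (-2.23, 0.0277). The share of all genes that passed in that fit is not given here. Over the fits that each left out 1 mouse, 0 to 3 members passed. Cyp2a4 also passed when only the 2 groups were fitted (limma adjusted p = 0.0482), where 7 of all genes passed. It did not pass with array weights (0.12), with the 8 tumours as separate values (0.134) or with quantile normalization (0.0765). Over all alternatives its limma adjusted p ran from 0.0328 to 0.293.

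The lowest log2 difference of tumours from controls was that of Cyp2f2, -3.41 ± 1.29 (10.6-fold, exact permutation p = 0.0952). Cyp2c54 (-2.59), Cyp2c50 (-2.50), Cyp2c23 (-2.20) and Cyp2u1 (-2.00) followed. Cyp2u1 was at 6.22 to 8.13 in controls and 4.85, 5.08 and 6.50 in tumour mice, and tumour 93 held the highest value. On the higher side Cyp2b9 (2.08), Cyp2b13 (0.86), Cyp1b1 (0.43) and Cyp2a22 (0.36) came after Cyp2a4, none of them past the test. Cyp2b9 read 6.54 in control 10 and 3.15 and 3.87 in the other 2 controls. Control 10, with the high macrophage mean, was thus also the highest control for Cyp2b9 and Cyp2a4, and the part of the other cells in this was not tested.

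Tumours differed widely in how many members they held below adjacent liver. Relative to the mean of adjacent liver, 24 of 57 members were lower by at least 1 in tumour 81 (3.12% of all genes), 17 in tumour 123 (2.83%), 15 in tumour 90 (4%) and 13 in the unnumbered tumour of mouse 121 (1.5%). Tumours 3 of mouse 121, 124, 2 of mouse 121 and 93 had 8, 6, 2 and 1 such members, against 0.326%, 0.747%, 1.07% and 0.219% of all genes. Tumour 81 held the lowest value of all differences, -6.32 for Cyp2c50, and tumour 90 stood at -5.39 for Cyp2f2 and 5.30 for Cyp2b9. Tumour 2 of mouse 121 had more members higher by at least 1 (9, against 2.56% of all genes) than lower, led by Cyp2b10 at 6.09, and tumour 93 had 5 higher (0.619% of all genes). Over the other tumours 2 to 5 members were higher, against 1.52% to 4.03% of all genes. Each adjacent liver, set against the other 4, had 1 to 7 lower and 1 to 5 higher, against 0.228% to 0.653% and 0.215% to 1.63% of all genes.

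**Figure D3:**
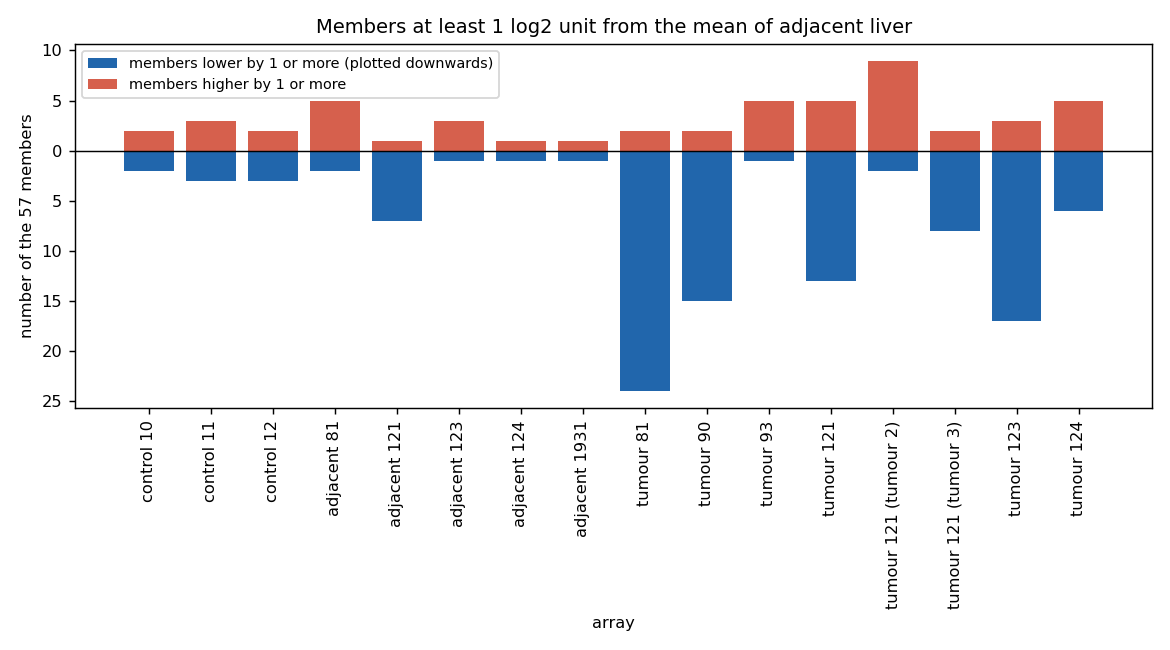
Number of the 57 genes at least 1 log2 unit below or above the mean of adjacent liver on each array; each adjacent liver is compared with the other 4. Tumour 81 has 24 below and 2 above, tumour 93 has 1 below and 5 above, and tumour 2 of mouse 121 has 2 below and 9 above; the shares of all genes are given in the text.

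In the 4 mice with both tissues, each tumour could be set against its own adjacent liver, with the tumours of mouse 121 averaged. Cyp2c23 and Cyp2c38 were lower by at least 1 in all 4 mice, and Cyp2a4 was higher by at least 1 in all 4. Over all genes, 0.073% were lower and 0.198% higher by at least 1 in every pair. A lower value of any size in all 4 mice was found for 18 of 57 members, against 13% of all genes, and a higher one for 2 members, against 9.97% of all genes.

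The 3 tumours of mouse 121 shared the host and differed from each other at some members by as much as tumours of different mice. Their range was 1 or more for 21 members, against 33 members over the 6 mice, and its median was 0.64, against 1.87. The former range is over 3 arrays and the latter over 6 mice, with mouse 121 entered as the mean of its tumours. A range grows with the number of values, so these ranges are not like for like. For 10 members the range within mouse 121 was the larger one. In the unnumbered tumour, tumour 2 and tumour 3, Cyp2b10 stood at 4.07, 10.50 and 4.11, Cyp2d12 at 2.10, 6.95 and 2.10 and Cyp2c37 at 6.48, 11.20 and 8.02. Tumour 2 was thus the highest for these 3 genes, of which Cyp2b10 and Cyp2c37 are inducible through CAR. Cyp2a4 followed another order, at 10.95, 10.34 and 5.95, and tumour 3 also had the lowest Cyp2b13 (2.70). Cyp2c38 was at 4.92, 10.09 and 8.32, lowest in the unnumbered tumour.

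The members lie in clusters on a few chromosomes, and neighbours could be set side by side in the gene order of RefSeq. On chromosome 7, Cyp2b13, Cyp2b9 and Cyp2a4 are consecutive members, and they were the 3 with the largest differences of tumours from adjacent liver on the higher side (0.98, 2.40 and 2.91). The members on either side, Cyp2b10 and the dim Cyp2b23, differed by -0.16 and 0.00, and Cyp2f2 near the end of the same cluster by -2.25. On chromosome 19, Cyp2c37, Cyp2c54 and Cyp2c50 are consecutive and differed by -2.06, -2.62 and -2.68, while Cyp2c70 beside them differed by -0.31. At the other end Cyp2c55 differed by 0.02, and the dim Cyp2c65 and Cyp2c66 by 0.04 and -0.18. In order between Cyp2c66 and Cyp2c37 lie Cyp2c29 (-1.535), Cyp2c39 (0.08), Cyp2c38 (-2.46), Cyp2c67 (-1.48), Cyp2c68 (-0.45), Cyp2c40 (-1.98) and Cyp2c69 (-0.95). A small value of a dim member is not a measured absence of change. Members of a subfamily are close in sequence, so probe sets of neighbours may share signal.

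**Figure D4:**
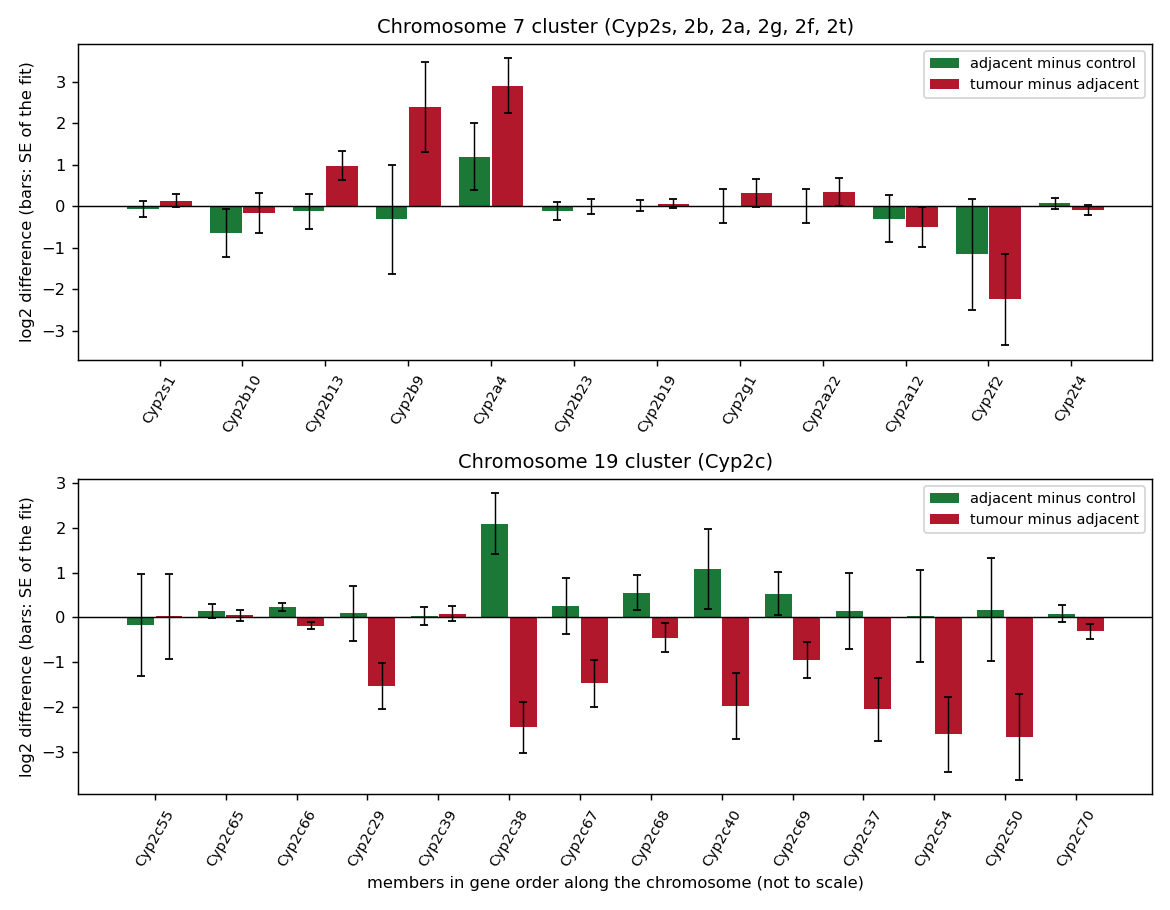
Log2 difference of adjacent liver from control (green) and of tumours from adjacent liver (red) for clustered members in gene order on chromosomes 7 and 19, with error bars of 1 SE of the limma fit. Cyp2r1 and Cyp2e1 on chromosome 7 and Cyp2c23 on chromosome 19 are not drawn (tumours from adjacent liver -0.43, -1.38 and -2.06). Of the red bars, those of Cyp2b13, Cyp2b9 and Cyp2a4 (0.98, 2.40 and 2.91) stand together above 0 on chromosome 7, and Cyp2c37, Cyp2c54 and Cyp2c50 (-2.06, -2.62 and -2.68) together below 0 on chromosome 19.

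Grouped by known regulation, the 7 measured pericentral members (Cyp2e1, Cyp1a2, Cyp2c29, Cyp2c37, Cyp2c50, Cyp2c54 and Cyp3a11) had a median log2 difference of tumours from adjacent liver of -1.54, all 7 were negative, and 5 were at -1 or less. Their mean level lay between 10.05 and 10.92 in adjacent livers. In tumours it ran from 6.23 (tumour 81) to 10.72 (tumour 2 of mouse 121), with 10.70 in tumour 93. The 8 genes inducible through CAR or PXR, 5 of which are also in the pericentral list, had a median of -1.03. The 8 genes listed as arachidonic acid epoxygenases had a median of -1.83, with 7 at -1 or less, and the exception was Cyp2j6. Of the 10 female-biased members the median was 0.14, from -1.98 for Cyp2c40 to 2.91 for Cyp2a4, with 3 negative. The 3 targets of the aryl hydrocarbon receptor had a median of 0.01. Over all 23279 genes the median was -0.03, with 13039 negative and 220 at -1 or less. No member of any of these lists passed.

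Partners and regulators of these enzymes were read from the same fit. Of 4 measured electron donors, the median difference was -0.15, with -0.21 for Cyb5a and -0.50 for Cyb5b, which pass on electrons as cytochrome b5. Cytochrome P450 oxidoreductase was not among these 4 genes. The 9 measured genes of haem synthesis and breakdown had a median of -0.30, with -0.50 for Alas1, the rate-limiting step, and -0.49 for Alad. Among 11 xenobiotic receptors and partners the median was -0.17, with 0.02 for Ahr and 0.13 for its partner Arnt. Nr1i3, which encodes CAR, was at 8.48 to 10.21 in adjacent livers and at 5.93 in tumour 81, with the other tumours at 7.78 to 9.19. It was named after its values were seen. The 14 hepatocyte and growth hormone regulators had a median of -0.41, with -0.09 for Hnf4a and -0.49 for Cebpa. None of these genes passed in any of the 3 comparisons.

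The growth hormone receptor gene Ghr, named after its values were seen, was at 8.93, 8.86 and 8.91 in tumours 81, 90 and 123 and at 9.34 to 10.36 in the other 5, against 10.18 to 10.63 in adjacent livers. Its difference was -0.94 (limma adjusted p = 0.0986), and the 3 lowest tumours were those with the lowest Cyp2f2 and Cyp2j5. The 44 other P450 genes were mostly of other families, such as the fatty acid hydroxylases of family 4. They also held Cyp2ab1, Cyp2c53-ps, Cyp2d37-ps and Cyp3a41b, of families 2 and 3, whose symbols the rule for members did not match. Across these 44 genes the median difference of tumours from adjacent liver was -0.18, beside -0.18 for the 57 members, and 0 passed. They ran from -3.27 for Cyp4a14 to 1.90 for Cyp4f16.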

How the data were processed

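RNA of whole liver or tumour was extracted with Trizol, amplified, labelled with biotin and hybridised to 16 arrays, 1 per sample, per the labels' protocols. The deposited values are log2 expression. The submitters' processing notes list RMA and Partek and no version. Chip, probe set definition and build: not given in the sources used here. RMA equalises array distributions and compresses differences of dim probe sets. Of 24479 probe sets, 23281 had 1 symbol, 0 several and 1198 none. The higher mean was kept for 2 symbols with 2 probe sets, which left 23279 genes, and all 57 members matched RefSeq (GRCm38.p6, used for names and gene order). No 2 arrays were identical (correlations 0.936 to 0.990), and their number limits the precision.

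Tumours of mouse 121 were averaged. The 3 groups were fitted together in limma 3.58.1 (R 4.3.3, lmFit, eBayes with trend, no block), and a gene passed at a Benjamini-Hochberg adjusted p under 0.05 over all genes. SE is that of this fit. The 5 marker genes also had two-sided exact permutation tests. Those tests and the main fit treated tumour and adjacent values of the 4 mice with both tissues as independent. The script was tested on simulated data. Since animals are numbered in the titles, p-values measure the spread between mice. By these numbers 4 mice gave both tissues (correlations of deviations 0.0998, 0.0349, 0.0817 and 0.0994 in mice 121, 123, 124 and 81). It is not known if mice 1931 and 93 are 1 animal, and they were treated as different. No batch is named.

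The members and lists were chosen with earlier results of these data known. Named are the 5 marker genes, members past the threshold, the 5 largest differences in each direction per comparison, the extremes of each subfamily, and of pathway lists those that passed or, with none, the first 2 measured. Others are marked as chosen after their values were seen, or stand in a count, range, pair or gene order. Alternatives covered scaling, a filter on low values, the fit, the mouse block and leaving out each mouse. Promoter windows were aligned with Biopython 1.88.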

Additional observations from a re-analysis of the deposited data

Results flagged for a closer look

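In 10 of 114 groups of adjacent livers or tumour mice, 1 sample stood far from the rest of its group, where chance gives about 1 in 20. Tumour 81 was low for Cyp2a12 (7.63, others 9.86 to 11.14), Cyp2c70 (10.28, others 10.94 to 11.27), Cyp2d40 (4.64, others 7.97 to 8.76) and Cyp3a11 (9.08, others 11.36 to 12.26). Mouse 121, as the mean of its 3 tumours, was high for Cyp2b10 (6.22, others 3.65 to 4.11) and Cyp2d12 (3.72, others 2.09 to 2.70), and in both its tumour 2 held the high value. The adjacent liver of the same mouse was low for Cyp2c37 (8.90, others 10.11 to 10.56) and Cyp2c54 (7.51, others 9.04 to 9.60). Tumour 93 was high for Cyp2u1 (6.50, others 4.85 to 5.45), and adjacent liver 123 was high for the dim Cyp2c65 (3.12, others 2.53 to 2.63).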

How the results depend on the processing

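Of the recomputed values, 508 kept their direction and their side of the threshold or moved by less than the spread, 11 moved, 8 newly passed and 5 changed sign. The number of members past the test for tumours against adjacent liver was 0 and became 2 with a filter on low values (Cyp2a4 and Cyp2d13), 2 with array weights (the same names), 2 with the unnumbered tumour of mouse 121 only (Cyp2a4 and Cyp2c38), 1 with the 8 tumours as separate values (Cyp2d13) and 1 with mouse as a random block on those separate values (within-mouse correlation 0.0732). It was 0 with a fixed replicate block in 4 mice, 0 without tumour 2 of mouse 121 (an alternative chosen after seeing the data), and 0 to 7 when 1 mouse was left out, the 7 without tumour 93. All genes past the test numbered 36, and 181 with the filter, 442 with weights, 206 with the random block and 743 without tumour 93. They numbered 157 with the unnumbered tumour of mouse 121 only and 87 with the 8 tumours as separate values. The median member difference was -0.453 over the 39 members that the filter keeps, and -0.254 to -0.089 with 1 mouse left out, the last without tumour 81. For tumours against controls the count of members was 1 with the filter, where 35 of all genes passed. It was 1 with only the 2 groups fitted (7 of all genes) and 1 with the unnumbered tumour (33 of all genes). The member was Cyp2a4 each time, and 0 to 3 members passed with 1 mouse left out. The sign turned for adjacent liver against control, all far from passing, at Cyp1a2 with array weights (0.004) and with 1 mouse left out (-0.14 to 0.112), and at Cyp2b9 (-1.002 to 0.692, the highest without control 10). The cause was not tested. Dim members have compressed differences, so for the 18 below the floor a small value is not a measured absence of change.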
